A study of Mus musculus with 2 samples.

Results

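The genes described here are 9 genes of sphingosine-1-phosphate (S1P) and lysophospholipid signalling: S1pr1, S1pr3, Sphk1, Sphk2, Spns2, Sgpl1, Plpp1, Plpp3 and Enpp2. They were taken by symbol from a fixed list, and all 9 were found among the 27933 gene symbols of the deposited count matrices. Expression was measured by droplet single-cell RNA sequencing in mouse mandibular lymph nodes, in 1 library after subarachnoid haemorrhage (SAH, bleeding into the space around the brain, here by autologous blood infusion) and 1 library after a sham operation. For each library the nodes of 20 mice were combined 24 h after surgery, and the labels give no strain, sex or age. Both libraries were made from cells depleted of CD45, a leukocyte surface protein, and then selected on beads for CD31 or podoplanin. With 1 library per group there is no replicate check of any difference. All intervals are 95% intervals that cover counting error only.

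S1P is a lipid that lymphocytes follow out of lymph nodes, up a gradient from low levels in the tissue to high levels in lymph and blood. The kinases Sphk1 and Sphk2 make it from sphingosine, the transporter Spns2 carries it out of endothelial cells, and lymph S1P depends on lymphatic endothelial Spns2. The lyase Sgpl1 degrades S1P inside the cell, and the surface phosphatases Plpp1 and Plpp3 remove the phosphate of S1P and of lysophosphatidic acid (LPA) outside it. S1pr1 and S1pr3 are receptors for S1P, of which S1pr1 supports endothelial barrier function. Enpp2 encodes autotaxin, the secreted enzyme that makes LPA, and high endothelial venules are known for expressing it.

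On GRCm38, the build that mm10 names, all 9 are protein-coding genes whose identifiers match those of the files. The receptors are S1pr1 at chr3:115710433-115715072 on the minus strand and S1pr3 at chr13:51408639-51422797 on the plus strand. The kinases are Sphk1 at chr11:116530925-116536674 (plus) and Sphk2 at chr7:45709467-45718002 (minus). Spns2 lies at chr11:72451638-72489904 (minus) and Sgpl1 at chr10:61098642-61147703 (minus). Plpp1 lies at chr13:112800792-112867894 (plus), Plpp3 at chr4:105157347-105232764 (plus) and Enpp2 at chr15:54838901-54952892 (minus). On the other strand Sphk2 overlaps Rpl18 and Dbp, Spns2 overlaps Mybbp1a and Plpp1 overlaps Mtrex. Also on the other strand S1pr3 overlaps Gm32834, Sphk1 overlaps Gm29292 and Enpp2 overlaps Gm26684. Sgpl1 overlaps Gm44308 on its own strand. Whether the authors' counting used strand is not given in the sources used here, so reads of these overlapping pairs may not be separable.

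The library chemistry tags the 5′ end of each cDNA, so reads begin near transcript starts. The 250 bases before the start are shown for S1pr3 and Plpp3, because the levels of these genes separate the classes and subsets described below. They are RefSeq sequences of GRCm38.p6, plus strand, at chr13:51408368-51408617 for S1pr3 and chr4:105157097-105157346 for Plpp3, and neither window overlaps an annotated exon. Capitals mark CACCC and its reverse complement GGGTG, the letters of the box that Krüppel-like factors bind.
S1pr3: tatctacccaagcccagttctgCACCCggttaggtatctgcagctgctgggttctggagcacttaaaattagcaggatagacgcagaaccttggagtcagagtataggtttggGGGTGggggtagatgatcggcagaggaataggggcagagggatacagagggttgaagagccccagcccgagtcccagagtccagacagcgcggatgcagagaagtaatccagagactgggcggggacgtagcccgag
Plpp3: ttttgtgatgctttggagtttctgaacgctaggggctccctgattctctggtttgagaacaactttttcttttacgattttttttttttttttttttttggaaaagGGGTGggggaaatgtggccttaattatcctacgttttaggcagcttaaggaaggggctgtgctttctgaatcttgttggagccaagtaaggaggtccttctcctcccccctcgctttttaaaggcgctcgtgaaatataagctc
The S1pr3 window held 2 such matches and the Plpp3 window held 1, and 52% of 32851 annotated windows of the same length held at least 1. The GC box GGGCGG (or CCGCCC on the other strand) had 1 match before S1pr3, apart from the CACCC matches, and 0 before Plpp3. It was present in 32.7% of windows. TATAAA, in either direction, had 0 matches in both and was present in 12.4% of windows. A match is a description of the letters and does not show binding.

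Cells were sorted into classes by raw counts of unique molecular identifiers (UMIs) of marker genes. Lymphatic endothelial cells (LEC) had at least 1 UMI of Prox1, the lymphatic transcription factor, and numbered 2364 (sham) and 2562 (SAH). Blood endothelial cells (BEC) had no Prox1, at least 1 UMI of Pecam1, and at least 1 UMI of Ly6c1, Flt1, Fut7 or Chst4; there were 6348 and 6503 of them. Fibroblastic stroma had no Pecam1 or Prox1 and at least 3 UMIs of Dcn and Col3a1 together, with 1532 and 1631 cells. The labels call all cells lymphatic endothelial, but LEC made up 21.2% and 22.4% of kept cells. LEC were split into cells with only Ackr4 (1096 and 982; Ackr4 marks the sinus ceiling), only Madcam1 or Coch (447 and 452; sinus floor), only Marco (92 and 244; medullary sinus), several (160 and 359) or none (569 and 525) of these. BEC were split into cells with Fut7 or Chst4, the enzymes of high endothelial venules (1082 and 1245), and other BEC (5266 and 5258).

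The classes carried their defining genes, with Dcn at 11436 and 12202 UMIs per 1000000 UMIs of the class (CPM) in sham and SAH fibroblastic stroma and Glycam1 at 37081 and 36239 CPM in Fut7/Chst4 BEC. Among genes that the subset rule did not use, the ceiling gene Cav1 was 408 and 350 CPM in Ackr4 LEC against 76.8 and 81.3 CPM in Madcam1/Coch LEC. The floor gene Ccl20 was 8.44 and 14.7 CPM against 5290 and 1217 CPM. Ptprc, which encodes CD45, was between 2.14 and 6.77 CPM in the 3 classes. Kept cells had a median of 5039 (sham) and 5747 (SAH) UMIs, and the libraries shared 76 barcodes. Glycam1 was also high in the Madcam1/Coch LEC, at 19858 and 15324 CPM, where Fut7 was 8.53 and 24 CPM against 379 and 478 CPM in Fut7/Chst4 BEC, so Glycam1 is not particular to the venule type here. Markers of one class were also counted in cells of another. In BEC the summed level of the fibroblast list (8 of 8 genes above 0) was 1287 CPM (sham) and 2681 CPM (SAH). LEC with at least 1 UMI of the BEC markers Ly6c1 or Flt1 made up 36.8% of sham and 58.1% of SAH LEC. In BEC themselves Ly6c1 was 2321 and 2926 CPM, and Flt1 was 1046 and 1224 CPM. These shares moved with the groups, so members are also given by the markers of the other class in the same cell.

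A gene was called different where it was at least 1.5-fold apart and had at least 10 CPM in the higher library. By this rule 0 of the 9 genes were called in LEC, where 5.97% of 8867 measured genes were higher and 3.0% were lower in the SAH library. In BEC 1 of the 8 genes with at least 10 CPM was called, S1pr3, which was higher, against a background of 5.93% higher and 2.34% lower. In fibroblastic stroma 1 of 9 was called, Sphk1, also higher, where 5.96% of genes were higher and 7.10% were lower. Among the LEC subsets 0 of 8 measured members were called in Ackr4 LEC (6.27% of all genes higher, 2.86% lower) and 1, Plpp3, was higher in Madcam1/Coch LEC (9.05% higher, 5.91% lower). In Marco LEC 3 were lower (15.9% higher, 13.5% lower). In LEC with several markers Plpp3 was higher (9.67% higher, 7.51% lower), and in LEC with none S1pr3 was (8.37% higher, 7.37% lower). S1pr3 was the 1 member called in Fut7/Chst4 BEC (6.54% higher, 3.80% lower) and in other BEC (6.41% higher, 2.53% lower). The median log2 ratio of SAH to sham over the 9 genes was 0.17 in LEC, 0.23 in BEC and 0.04 in fibroblastic stroma, beside medians over all measured genes of -0.00, -0.00 and -0.07. Most members thus differed between the libraries by less than the 1.5-fold limit, while their levels differed widely between cell classes.

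**Figure D1:**
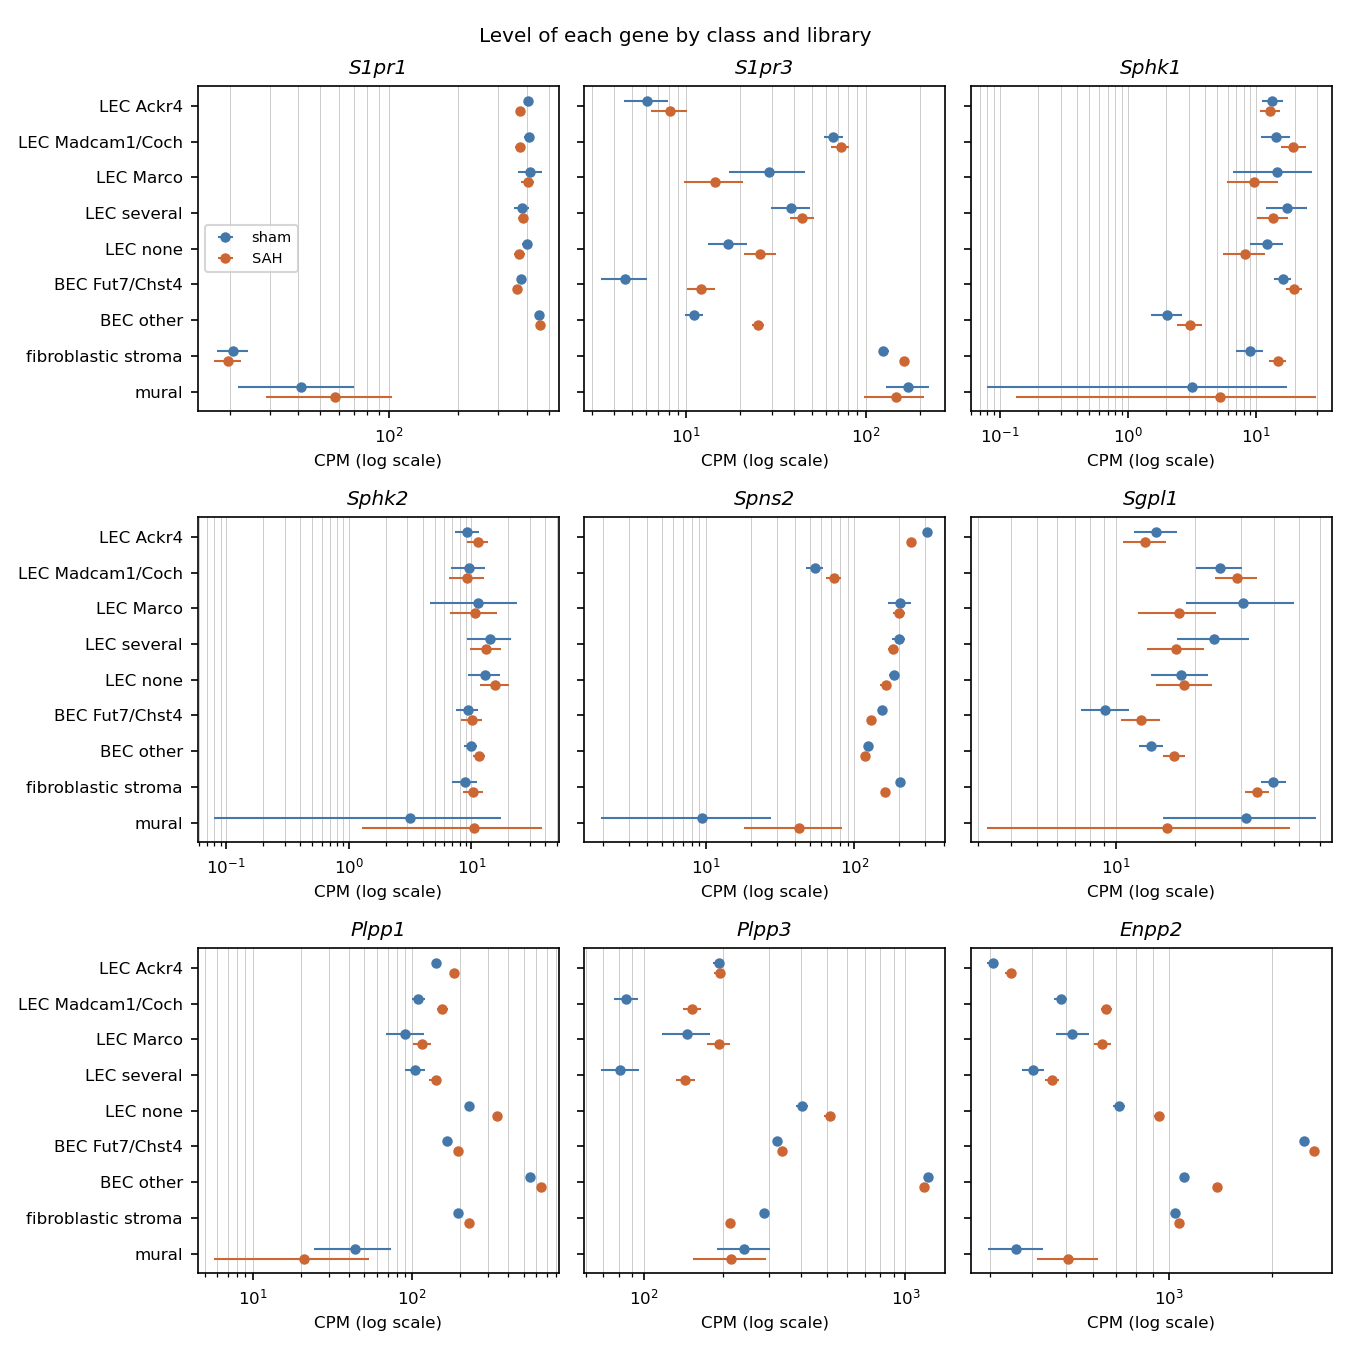
Level of each gene in CPM (log scale, horizontal axis, a separate range for each gene) in 9 cell classes, in the sham (blue) and SAH (orange) library, with points at the level of the summed UMIs and bars for the Poisson counting interval. S1pr1 separates endothelial classes from fibroblastic stroma, S1pr3 is highest in mural cells and fibroblastic stroma, Spns2 is highest in Ackr4 LEC, and Enpp2 is highest in Fut7/Chst4 BEC.

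**Figure D2:**
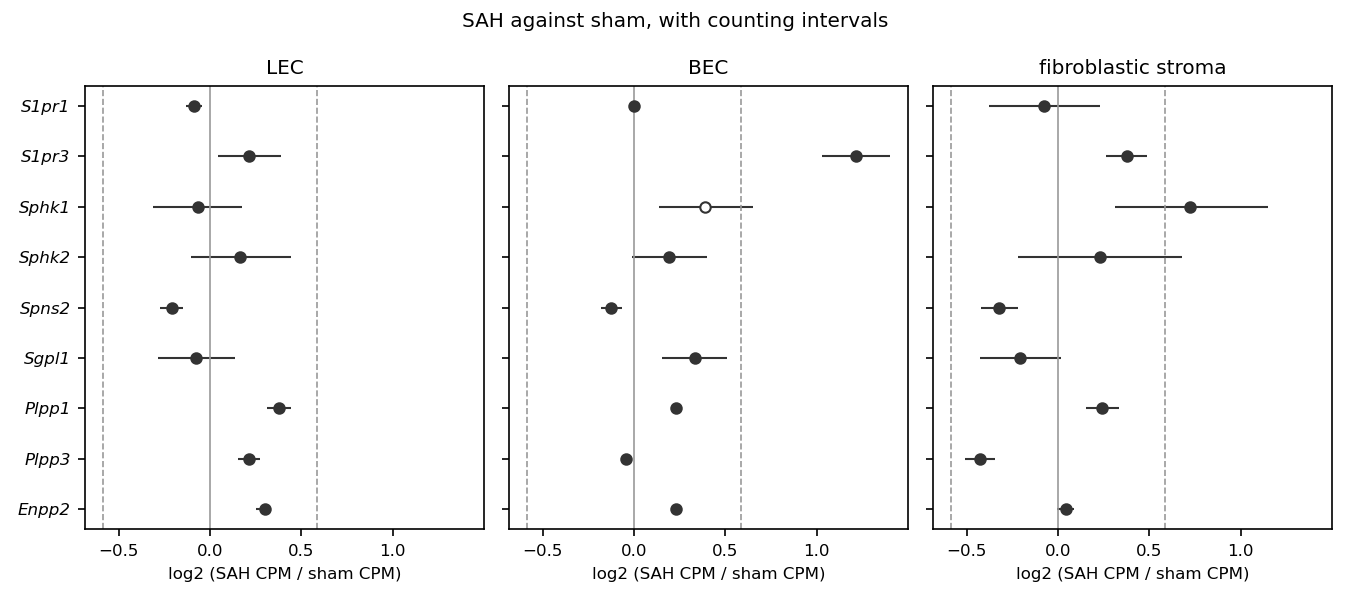
Log2 ratio of SAH to sham CPM (horizontal axis) of the 9 genes in LEC, BEC and fibroblastic stroma, with counting intervals and dashed lines at 1.5-fold in either direction. Open points have less than 10 CPM in both libraries, and the filled points past a dashed line are S1pr3 in BEC and Sphk1 in fibroblastic stroma.

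S1pr1, the receptor that lymphocytes use to leave nodes and that endothelium uses in its barrier, was an endothelial gene here. Its level was 403 CPM (sham) and 379 CPM (SAH) in LEC, 429 and 430 CPM in BEC, and 20.8 and 19.7 CPM in fibroblastic stroma. Over the 7 endothelial subsets S1pr1 ran only from 364 to 457 CPM. In the sham library each of these subsets had a counting interval that overlapped that of its neighbour in the order. In the SAH library other BEC stood above the rest, whose neighbours overlapped. After each cell was thinned to 2000 UMIs, a UMI of S1pr1 was seen in 52% and 50.6% of LEC, against 3.79% and 3.3% of fibroblastic stroma (84.9% and 87.2%, against 9.2% and 11.2%, without thinning). SAH over sham was 0.94 [0.911, 0.969] in LEC.

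S1pr3, a second S1P receptor, had the reverse distribution and was lower in most endothelium. Mural cells had 173 and 147 CPM, sham first here and in the pairs of values that follow, from 55 and 28 UMIs, and fibroblastic stroma had 125 and 163 CPM. Within LEC the Madcam1/Coch subset stood apart, with 66.1 and 72.5 CPM against 6.07 and 8.13 CPM in the Ackr4 subset. The intervals of these 2 subsets did not overlap in either library. In thinned cells a UMI of S1pr3 was seen in 10.5% and 10.1% of Madcam1/Coch LEC and in 0.644% and 0.92% of Ackr4 LEC (33.6% and 31.6%, against 3.28% and 5.09%, without thinning). Per 100 UMIs of the fibroblast gene Dcn, S1pr3 had 10.8 and 10.7 UMIs in Madcam1/Coch LEC, against 1.21 and 1.24 in Ackr4 LEC and 1.1 and 1.33 in fibroblastic stroma. The sinus floor subset therefore carried more S1pr3 relative to Dcn than fibroblastic stroma did, in both libraries. The part of fibroblast transcripts in its S1pr3 level was not tested.

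Between the libraries S1pr3 was higher after SAH in fibroblastic stroma, by 1.3-fold [1.2, 1.4], and in BEC, by 2.32-fold [2.04, 2.64], from 9.28 to 21.5 CPM. The BEC ratio was 2.68 in the Fut7/Chst4 subset (4.56 and 12.2 CPM) and 2.27 in other BEC (11.1 and 25.2 CPM). Fibroblast transcripts moved with it: Dcn in BEC was 612 and 1303 CPM, and BEC with at least 3 UMIs of Dcn and Col3a1 made up 7.56% and 14.0% of the class. Of all BEC S1pr3 UMIs, 75.9% of 340 (sham) and 83.7% of 799 (SAH) lay in those cells. In BEC with 0 such UMIs S1pr3 was 2.41 and 3.66 CPM, which is 1.52-fold [1.03, 2.24] and under the 10 CPM limit. In BEC with 1 or 2 it was 2.77 and 5.15 CPM, or 1.86-fold [1.16, 3.08], the largest ratio of the 3 strata and also under that limit. In BEC with at least 3 it was 65.4 and 86.2 CPM, or 1.32-fold [1.14, 1.53]. S1pr3 per 100 Dcn UMIs in all BEC was 1.52 and 1.65, above the 1.1 and 1.33 of fibroblastic stroma. The BEC call was thus lost once cells with fibroblast UMIs were left out, on the level and not on the ratio. A stricter class rule likewise gave 2.35 and 4.18 CPM, 1.78-fold. In other BEC the ratio itself came under the limit, at 1.36 with the stricter rule and 1.39 without Dcn or Col3a1 cells. In Fut7/Chst4 BEC the call was lost under 4 alternatives on the level alone, among them 3.1-fold (2.87 and 8.91 CPM) without predicted doublets, and the ratio ran from 2.09 to 7.93 over all alternatives.

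In LEC as a whole S1pr3 was 25.4 and 29.4 CPM, or 1.16-fold [1.03, 1.31]. LEC with at least 3 Dcn and Col3a1 UMIs were 18.2% and 28.6% of the class. Of all LEC S1pr3 UMIs, 54.8% of 471 (sham) and 63% of 668 (SAH) lay in those cells. S1pr3 was 14.5 and 15.4 CPM in LEC with 0 such UMIs, 15.9 and 17.4 CPM with 1 or 2, and 58.2 and 53.2 CPM with at least 3. Within these 3 strata the ratio was 1.06, 1.1 and 0.913, with intervals that each held 1. By the BEC markers it was 1.3 [1.1, 1.53] in LEC without a UMI of Ly6c1 or Flt1 (28.1 and 36.5 CPM) and 1.18 [0.976, 1.42] in LEC with one. The LEC with none of the subset markers were called for S1pr3 at 1.51-fold (17.1 and 25.9 CPM). That call was lost under 6 of the alternative settings, with 1.05-fold after thinning and 1.26-fold to 1.47-fold under the other 5, and over all alternatives the ratio ran from 1.05 to 1.97.

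**Figure D3:**
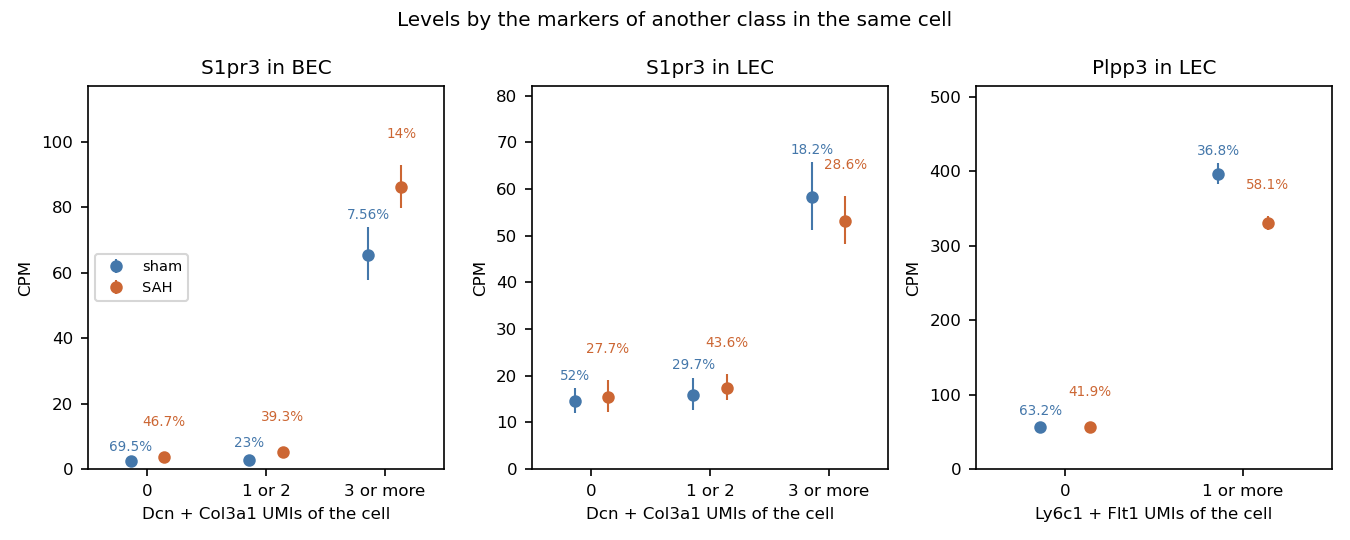
S1pr3 level in BEC and in LEC by the cell's UMIs of the fibroblast genes Dcn and Col3a1 (left and middle), and Plpp3 level in LEC by the cell's UMIs of the BEC genes Ly6c1 and Flt1 (right), in CPM with Poisson counting intervals. Percentages give each stratum's share of the class. S1pr3 in BEC is at most 5.15 CPM below 3 fibroblast UMIs and 65.4 and 86.2 CPM above, and Plpp3 in LEC is 57.1 and 56.7 CPM where no BEC marker was counted.

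Sphk1, one of the kinases that make S1P, was sparse. LEC had 13.8 and 13.2 CPM, from 257 and 300 UMIs. Within BEC it divided the class: Fut7/Chst4 BEC had 16.2 and 19.8 CPM, against 2.01 and 3.06 CPM in other BEC, so the high endothelial venule type held most of the BEC signal. In thinned cells a UMI was seen in 2.64% and 3.73% of Fut7/Chst4 BEC and in 0.423% and 0.428% of other BEC. In fibroblastic stroma Sphk1 was 8.95 CPM (71 UMIs, sham) and 14.8 CPM (159 UMIs, SAH), 1.65-fold [1.24, 2.22]. The thinned share of fibroblastic cells with a UMI was 1.47% [0.914, 2.24] and 2.59% [1.85, 3.5], and these exact binomial intervals overlap (3.92% and 9.01% without thinning, at median depths of 4767.5 and 6336 UMIs). Over the alternatives the fold ran from 1.53 to 2.09. Splits of this class by marker genes are described below and were chosen after values had been seen. Cells with only Lepr had a ratio of 1.23 [0.526, 3.04], and cells with only Ccl19 (at least 10 UMIs) 1.58 [0.821, 3.24]. Cells with several split markers (471 and 668) had 1.31 [0.885, 1.97], and cells with none had 3.22 [1.37, 8.14] from 9 and 18 UMIs. Only the last of these intervals was clear of 1, and the part of class composition was not tested.

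Sphk2, the other kinase, was even across classes. It had 10.6 and 11.8 CPM in LEC, 9.69 and 11.1 CPM in BEC, and 8.82 and 10.3 CPM in fibroblastic stroma. No subset of LEC or BEC had a level outside 9.22 to 15.6 CPM, so no cell class stood out for this gene. Its overlap with Rpl18, a ribosomal protein gene, applies to each of these values.

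Spns2, the S1P exporter, had its highest level in the Ackr4 LEC. There it was 307 and 242 CPM, from 2580 and 2176 UMIs. The Madcam1/Coch LEC had 54.1 and 72.8 CPM, the lowest of any endothelial subset, and Marco LEC had 202 and 200 CPM. BEC had 132 and 121 CPM. Fibroblastic stroma also held the transcript, at 203 and 162 CPM, and 30.6% and 24.8% of its thinned cells had a UMI (50.6% and 51.8% without thinning), against 0 of 70 and 6 of 45 mural cells. A count of 0 of 70 allows a share of up to 5.13% by the exact binomial interval.

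Spns2 was lower in the SAH library in 6 of the 7 endothelial subsets and in fibroblastic stroma, in no case past the 1.5-fold limit. Of the 6, Marco LEC (0.988 [0.807, 1.22]), LEC with several markers (0.91 [0.799, 1.04]) and other BEC (0.952 [0.906, 1]) had intervals that reached 1. SAH over sham was 0.865 [0.828, 0.903] in LEC, 0.789 [0.745, 0.836] in Ackr4 LEC, 0.917 [0.881, 0.955] in BEC and 0.8 [0.747, 0.857] in fibroblastic stroma. The exception was the Madcam1/Coch LEC, where it was 1.34 [1.13, 1.61]. By Dcn and Col3a1 UMIs, the ratio over all LEC was 0.798 in cells with 0 and 0.782 in cells with 1 or 2. In LEC with at least 3 it was 1.06 [0.977, 1.16]. The Ackr4 value was much the same in cells without a UMI of Ly6c1 or Flt1 (317 and 262 CPM, 0.826) and with one (291 and 231 CPM, 0.793). Over the alternatives the Ackr4 LEC ratio ran from 0.756 to 0.826 and the Madcam1/Coch ratio from 1.14 to 1.46. In Madcam1/Coch LEC it was 1.21 [0.932, 1.57] in cells without a UMI of Ly6c1 or Flt1 (53.6 and 64.9 CPM), an interval that holds 1, and 1.42 [1.09, 1.86] in cells with one (55 and 78 CPM). The lower Ackr4 level was thus present in both strata, and the higher Madcam1/Coch level was clear of counting error in cells that carried BEC markers.

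Sgpl1, the lyase that destroys S1P in the cell, was highest, of the 3 main classes, in fibroblastic stroma at 39.9 and 34.6 CPM. LEC had 18.7 and 17.8 CPM and BEC 12.4 and 15.5 CPM. Within LEC the Madcam1/Coch subset had 24.9 and 28.9 CPM against 14.3 and 12.9 CPM in the Ackr4 subset. So the floor subset, low in the exporter, had the higher lyase level of the pair in both libraries. This order did not extend to every subset. In the sham library Marco LEC had 30.7 CPM of Sgpl1, from 19 UMIs, beside 202 CPM of Spns2. In the SAH library they had 17.4 CPM beside 200 CPM. In BEC the ratio was 1.26 [1.11, 1.42], under the limit. By Dcn and Col3a1 UMIs it was 1.2 [0.984, 1.46] in BEC with 0 (10.3 and 12.4 CPM) and 1.16 [0.904, 1.5] with 1 or 2. In BEC with at least 3, 7.56% and 14% of the class, it was 0.96 [0.756, 1.22] (27.4 and 26.3 CPM). Each of these intervals held 1, and the part of fibroblast transcripts was not tested.

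The Marco LEC were called for 3 genes, all lower after SAH. S1pr3 was 29.1 and 14.5 CPM, Sphk1 14.6 and 9.67 CPM, and Sgpl1 30.7 and 17.4 CPM. These values rest on 18, 9 and 19 sham UMIs in 92 cells, and each changed direction under at least 1 alternative. The fibroblast list moved with them, from 3308 to 1563 CPM in this subset, and its part was not tested.

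Plpp1, a surface phosphatase for S1P and LPA, was mainly a gene of other BEC. It had 546 and 644 CPM there, against 165 and 193 CPM in Fut7/Chst4 BEC. LEC had 146 and 189 CPM. The ratio of SAH to sham was above 1 in all 3 classes, at 1.3 [1.24, 1.36] in LEC, 1.17 in BEC and 1.18 in fibroblastic stroma. In LEC it was 1.28 [1.18, 1.4] in cells without a UMI of Ly6c1 or Flt1 (97.2 and 125 CPM) and 1.06 in cells with one (214 and 227 CPM). The difference was therefore present in LEC in which neither BEC marker was counted. In LEC with 0 UMIs of Dcn and Col3a1 Plpp1 was 149 and 223 CPM, 1.5-fold as rounded [1.38, 1.62] and just short of the call. It was 1.28-fold in LEC with 1 or 2 such UMIs and 1.22-fold with at least 3. Over the alternatives the LEC ratio ran from 1.27 to 1.5. In thinned LEC the share with a UMI was 20.3% [18.7, 22] and 25.5% [23.8, 27.2] (45.6% and 57.5% without thinning), against 4.11% and 3.7% of lymphocytes.

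Plpp3, a related phosphatase, also marked other BEC. The level there was 1217 and 1180 CPM, against 323 and 337 CPM in Fut7/Chst4 BEC and 193 and 195 CPM in Ackr4 LEC. In BEC the libraries differed by little, 965 and 937 CPM, a ratio of 0.971. In LEC Plpp3 was 198 and 230 CPM, 1.16-fold [1.11, 1.21]. By the BEC markers, LEC without a UMI of Ly6c1 or Flt1 had 57.1 and 56.7 CPM, 0.994-fold [0.88, 1.12]. LEC with one had 397 and 331 CPM, 0.834-fold. Neither stratum was higher after SAH, while the stratum with the higher level made up 36.8% of sham and 58.1% of SAH LEC. These strata rest on unthinned UMIs, and the median depth of LEC was 6871.5 and 8193 UMIs. By Dcn and Col3a1 UMIs, Plpp3 was 1.39-fold [1.3, 1.49] in LEC with 0 (219 and 306 CPM). It was 1.13-fold in LEC with 1 or 2 and 1.18-fold in LEC with at least 3. The part of either kind of marker was not tested.

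Plpp3 was called in 2 LEC subsets. In Madcam1/Coch LEC it was 85.3 and 153 CPM, 1.79-fold [1.57, 2.05], and in LEC with several subset markers it was 81 and 144 CPM, 1.78-fold. In the Madcam1/Coch LEC the share of cells with a UMI of Ly6c1 or Flt1 was 32% and 55.3%. Without such cells the level was 25.3 and 31.2 CPM, 1.23-fold [0.84, 1.8], and without predicted doublets it was 60.1 and 88.8 CPM, 1.48-fold. The 10 cells with most Plpp3 held 36.6% and 39.5% of this subset's Plpp3 UMIs. The Madcam1/Coch call thus did not hold without the cells that carried BEC markers. In LEC with several subset markers it did: cells without a UMI of Ly6c1 or Flt1 had 35.5 and 63.8 CPM, 1.8-fold [1.22, 2.69], from 39 and 90 UMIs. After thinning to 2000 UMIs that subset had 90.6 and 126 CPM, 1.39-fold, under the limit.

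In fibroblastic stroma Plpp3 was lower after SAH, 288 and 214 CPM, 0.744-fold [0.702, 0.788]. The level was concentrated in few cells. Splits of this class by a single marker were chosen after values had been seen. The cells with only Pi16, a marker of adventitial fibroblasts, numbered 66 and 51 and had 2726 and 3375 CPM. These cells held 838 of the 2288 sham and 840 of the 2308 SAH Plpp3 UMIs of the class, and in them Plpp3 was 1.24-fold [1.12, 1.36]. Cells with only Lepr, a marker of reticular stroma, had 146 and 129 CPM. Cells with several of the split markers, 471 and 668 of them, had 152 and 89.8 CPM, 0.59-fold. The direction therefore differed within the class, and the composition of the class differed between the libraries.

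**Figure D4:**
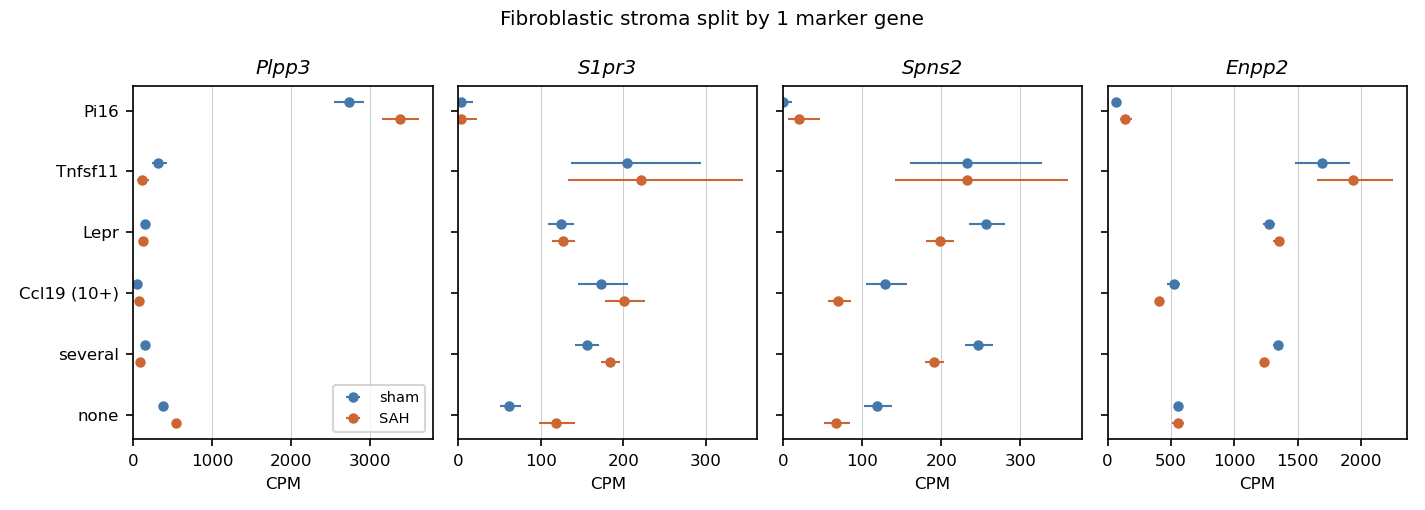
Plpp3, S1pr3, Spns2 and Enpp2 in fibroblastic stroma split by 1 marker gene, in CPM with Poisson counting intervals, in the sham (blue) and SAH (orange) library. Plpp3 is at 2726 and 3375 CPM in cells with only Pi16 and at most 540 CPM in every other split, and the other 3 genes are lowest in the Pi16 cells.

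In the same Pi16 cells most other members were lower than in the Lepr cells. S1pr3 had 1 UMI in each library there, Spns2 had 0 and 5 UMIs, Enpp2 was 65.1 and 137 CPM, and Plpp1 was 22.8 and 20.1 CPM. Sgpl1 was 26 and 28.1 CPM, from 8 and 7 UMIs, against 42.2 and 37.1 CPM in the Lepr cells. S1pr1 had 2 and 0 UMIs in the Pi16 cells, against 25.8 and 16.1 CPM in the Lepr cells. Sphk1 had 1 and 0 UMIs, against 4.96 and 6.12 CPM. Sphk2 differed in direction between the libraries, with 9.76 and 12.1 CPM against 7.94 and 12.6 CPM. Cells with only Lepr had 124 and 127 CPM of S1pr3, 257 and 198 CPM of Spns2, 1271 and 1348 CPM of Enpp2, and 153 and 167 CPM of Plpp1. Cells with at least 10 UMIs of Ccl19, a chemokine of T-zone reticular cells, had 173 and 201 CPM of S1pr3. In those Ccl19 cells (104 and 172) Spns2 was 129 and 70.2 CPM, 0.544-fold [0.407, 0.727], the lowest ratio of Spns2 among the splits. Cells with only Tnfsf11, 31 and 14 of them, had 205 and 221 CPM of S1pr3 and 1687 and 1932 CPM of Enpp2, the highest of the splits. Spns2 was 233 CPM there in both libraries. The level of Plpp3 was thus highest in the Pi16 cells, and those of S1pr3, Spns2 and Enpp2 were higher in the Tnfsf11, Lepr and Ccl19 cells. Most Plpp3 UMIs of the class still lay outside the Pi16 cells.

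Enpp2, which encodes autotaxin, was highest in Fut7/Chst4 BEC. The level was 2478 and 2649 CPM, and 94.5% and 94.4% of thinned cells had a UMI (98.5% and 97.2% without thinning). Other BEC had 1105 and 1385 CPM, fibroblastic stroma had 1045 and 1072 CPM, and LEC had 443 and 543 CPM. Lymphocytes had a UMI in 16.4% and 11.1% of thinned cells, from 73 and 27 cells. LEC were above this, at 40.7% and 45.1%.

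Enpp2 was higher after SAH in both endothelial classes, under the 1.5-fold limit. In BEC the ratio was 1.17 [1.16, 1.19], with 1.25 in other BEC and 1.07 in Fut7/Chst4 BEC, where its level was highest. Among other BEC, in a split chosen after values had been seen, cells with only the arterial connexins Gja4 or Gja5 had 818 and 1246 CPM, 1.52-fold [1.47, 1.58], while cells with only Aqp7 had 412 and 394 CPM. In LEC the ratio was 1.23 [1.19, 1.26]. Among LEC without a UMI of Ly6c1 or Flt1 Enpp2 was 285 and 307 CPM, 1.08-fold [1.02, 1.13], and among those with one 664 and 681 CPM, 1.03-fold. Within either stratum the ratio was thus nearer to 1 than over all LEC, while the share of cells with BEC markers differed between the libraries. The subsets differed: the ratios without and with such a UMI were 1.16 [1.06, 1.28] and 1.25 [1.15, 1.35] in Madcam1/Coch LEC. In Ackr4 LEC they were 1.05 [0.939, 1.17] and 0.847 [0.796, 0.9]. By Dcn and Col3a1 UMIs, Enpp2 was 1.26-fold [1.2, 1.32] in LEC with 0, 1.39-fold with 1 or 2 and 1.04-fold with at least 3. The part of either kind of marker was not tested.

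The exporter Spns2 and the kinase Sphk1 were rarely counted in the same cell. Sphk1 itself was seen in only 2.41% and 2.55% of thinned LEC, and the share with both cannot exceed this. Among thinned LEC, 18 of 2324 sham and 19 of 2509 SAH cells had a UMI of both Sphk1 and Spns2. Sphk1 was seen in 2.29% of Spns2-positive and 2.47% of Spns2-negative sham LEC, and in 2.51% and 2.57% of SAH LEC. In these counts Sphk1 was no more frequent in cells in which the exporter was seen. With so few cells holding both, a moderate association could not have been seen, so no conclusion is drawn. Sphk2 was not examined in this way. Plpp3 was seen in 62.9% of S1pr1-positive and 64.5% of S1pr1-negative sham BEC, and in 63.3% and 60.4% of SAH BEC.

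Over 18 class and library profiles and 5474 genes, the genes most like S1pr1 by Pearson's r of log2 (CPM + 1) were Cdh5, the endothelial cadherin (0.990), Rasip1 (0.986) and Gimap6 (0.983). For Spns2 they were Cpne8 (0.860), Gdf10 (0.853) and St3gal1 (0.839). For Plpp3 they were Nrp1, a VEGF co-receptor (0.929), Fam13c (0.921) and Itm2b (0.909). For Enpp2 they were Noxo1 (0.922), Golm1 (0.908) and Capg (0.905). The profiles share 2 libraries, so these values describe likeness only. S1pr1 had the closest partners, and Spns2, whose levels crossed endothelium and stroma, the least close.

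Of 93 other genes of S1P, ceramide and lysophospholipid biology, all were in the files. In LEC 60 had at least 10 CPM, of which 3 (5%) were higher and 2 (3.33%) lower after SAH, with a median log2 ratio of -0.07. The higher ones were Pld2, a phospholipase D (16.9 and 28.1 CPM, 1.67-fold), Asah2, the neutral ceramidase (24.1 and 39.4 CPM, 1.63-fold), and Arrb1, an arrestin that turns off receptors (124 and 188 CPM, 1.51-fold). The lower ones were Lpcat4, a lysophospholipid acyltransferase (22.6 and 12.9 CPM, 0.568-fold), and Gdpd1 (15.1 and 9.69 CPM, 0.64-fold). These shares were close to those of all genes in LEC. The 4 of highest level were Gnai2, Klf2, Rac1 and Klf4. Klf2, a transcription factor that controls S1pr1 in lymphocytes, was 1107 and 738 CPM, 0.667-fold [0.654, 0.681], just short of the call.

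In BEC 58 of the 93 were measured, 2 (3.45%) higher and 2 (3.45%) lower, with a median of -0.14. S1pr4, an S1P receptor best known from leukocytes, was 18 and 31.8 CPM, 1.76-fold [1.6, 1.94], and Ormdl3, a regulator of sphingolipid synthesis, was 13.2 and 20.9 CPM, 1.59-fold. S1pr4 was examined further after its value had been seen. In BEC without leukocyte UMIs (Ptprc, Cd79a or Cd3e, or 10 of Cd74) it was 17.6 and 32.2 CPM, 1.83-fold [1.65, 2.03]. It was 1.84-fold in other BEC and 1.55-fold in Fut7/Chst4 BEC, and over the alternatives it ran from 1.69 to 1.97. The S1pr4 difference was thus as large without the cells that held leukocyte UMIs, although the myeloid list in BEC was 20.7 and 41.1 CPM, whose part was not tested. Lpcat4 was again lower (46.8 and 23.7 CPM, 0.507-fold), as was Rgs16, a brake on G-protein signalling (23.9 and 15.3 CPM, 0.64-fold). Gnai2, Klf2, Klf4 and Rhoa had the highest levels.

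In fibroblastic stroma 60 were measured, 5 (8.33%) higher and 6 (10%) lower, with a median of -0.18. Among the higher were Pld2 (1.68-fold), Smpd2 (1.67-fold), S1pr2, a further S1P receptor (16.1 and 25.3 CPM, 1.57-fold), and Arrb1 (1.53-fold). Among the lower were Smpd3, the neutral sphingomyelinase 2 gene (11.8 and 3.44 CPM, 0.29-fold), Acer3, an alkaline ceramidase (0.514-fold), Pla1a, a phosphatidylserine phospholipase (0.525-fold), and Cers6, a ceramide synthase (0.576-fold). Klf2 was lower as well, at 600 and 397 CPM, 0.661-fold. The highest levels were those of Klf2, Klf4, Gnai2 and Ugcg. Pld2 and Arrb1 were thus past the limit in both LEC and fibroblastic stroma, and Lpcat4 in both endothelial classes. Of the 6 lower genes 4 belonged to the S1P and ceramide enzymes, of which 22 were measured. So 18.2% of this group were lower, against 7.10% of all genes. This was the highest share of lower genes of any group in the 3 classes. In the same group 0 of 22 were lower in LEC and 0 of 21 in BEC. None of the 4 genes was above 22.9 CPM, and the part of class composition was not tested.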

How the data were processed

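The authors deposited a matrix of raw UMI counts for each library, made with Cell Ranger 5.0 and STAR on mm10, with Seurat 3.0.2 also named, per the submitters' processing notes. Whether introns were counted is not given in the sources used here. Sham held 13952 and SAH 13766 barcodes, with 72860197 and 78497486 counted UMIs. Barcodes with at least 500 genes and at most 10% mitochondrial UMIs were kept (11157 and 11454), and 6.35% and 5.89% of these fell in no class. Scrublet, run in scanpy 1.11.5 with an expected rate of 0.1, called 729 and 876 barcodes doublets. These were kept, and left out in an alternative. In sham and SAH the calls made up 13% and 15.7% of LEC, 4.52% and 5.8% of BEC, and 1.11% and 0.858% of fibroblastic stroma. Among Madcam1/Coch LEC they were 8.05% and 15%, so doublet calls differed between the libraries in that subset. UMIs were summed per class and divided by the class total. Ratios have exact conditional binomial, levels Poisson and shares Clopper-Pearson intervals. PCR copies are removed by UMIs, but cells of a library are not replicates, so no test was made and the calls rest on the size of the ratio. The interval code was tested on simulated data.

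Members and gene lists were chosen with earlier results of these data known. The text names all 9 members, up to 4 other pathway genes called in each direction per class, the 4 of highest level, class markers and the 3 genes most like 4 members. Alternatives used edgeR 4.0.16 TMM and DESeq2 1.42.0 size factors for scaling. Coordinates are from GENCODE (GRCm38) and promoters from RefSeq; of the 9 members 6 had a promoter entry. Python 3.11.15, numpy 2.4.6, scipy 1.17.1, pandas 2.3.3, matplotlib 3.10.9 and R 4.3.3 were used.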

Additional observations from a re-analysis of the deposited data

How the results depend on the processing

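No paired analysis was possible because each group is 1 library. The call of 0 members in LEC was the same under every alternative run. Plpp1 came just short of it, at 1.5-fold as rounded without cells holding a Dcn or Col3a1 UMI. In BEC the count of 1 became 0 under a stricter class rule and 0 without LEC and BEC cells holding a Dcn or Col3a1 UMI, an alternative chosen after seeing the data; S1pr3 then had 1.78-fold and 1.52-fold but under 10 CPM. In fibroblastic stroma the count of 1 became 0 with a fold of 2 as the limit. In Marco LEC the log2 ratio of S1pr3 turned to 0.97 under the stricter rule, that of Sphk1 to 0.58 after thinning to 2000 UMIs and to 1.09 without cells holding a Dcn or Col3a1 UMI, and that of Sgpl1 to 0.31 without the 10 cells with most UMIs; the cause was not tested. Of the 27 ratios of 9 members in 3 classes, 20 to 27 stayed within their counting interval under each other alternative that applies to all 3 classes. Without Dcn or Col3a1 cells 8 of 18 did, and without LEC holding Ly6c1 or Flt1 UMIs, also chosen after seeing the data, 7 of 9 did. Genes of few UMIs, such as Sphk1, Sphk2 and Sgpl1, set the limit of what this depth can show. A difference between mice cannot be told apart from one between operations.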
